A study of Homo sapiens with 6 samples.

Results

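The genes for prostaglandin receptors and prostaglandin synthases were examined in H295R, a human adrenocortical carcinoma line that makes steroid hormones, and in cells derived from it. The set holds 10 of the 57341 named genes in the count table: the receptors PTGER1, PTGER2, PTGER3, PTGER4 and PTGFR, the cyclooxygenases PTGS1 and PTGS2, and the synthases PTGES, PTGES2 and PTGES3. The family was chosen by the counts of 1 member, PTGER3, which was near absent in the libraries labelled WT and present in those labelled PTC. Its difference between the groups is therefore given as a description, with no p-value, although the gene was part of the fit over all genes.

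By the deposited labels, the 3 libraries called WT are parental H295R cells and the 3 called PTC are the Ptch1 positive subpopulation, named H295R-PM-Ptc+ in the study, which was sorted from H295R by an antibody to Ptch1 at the cell surface and then amplified. All 6 libraries come from this 1 cell line, grown in the same medium without treatment. Replicates 1, 2 and 3 carry the codes 1801, 3001 and 3101 in both groups, and no source used here says whether they were separate sorts or cultures, so the p-values measure only the spread between these samples. Between 23264403 and 25813247 fragments were counted per library, and levels are given as CPM, counts scaled to the size of the library, in which 1 count equals 0.0391 to 0.0432.

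The labels were checked on PTCH1, the gene of the sorted receptor. It had 441, 559 and 579 counts in the libraries labelled WT and 248, 326 and 319 in those labelled PTC, which goes against the labels (log2 fold change -0.81, standard error 0.147, edgeR adjusted p = 0.0207). The normalised values of the study itself carry the group names the other way round in every library. Both stand against the deposited labels. Protein measurements of the study, which also bear on the naming, were not used here. The libraries are called by the labels of the deposited table, and every direction below turns around if those labels are exchanged. No direction below is therefore to be read as one of the Ptch1 positive cells against their parental cells. Of 9 adrenocortical markers, 8 had enough counts to be tested, among them STAR and CYP17A1, while CYP11B1 had at most 3 counts in any library. Without a block for the replicate number, 1 of these 8 rose in the libraries labelled PTC, beside 2.42% of all 16710 genes tested. It was CYP21A2 (log2 fold change 0.88, edgeR adjusted p = 0.00670), which has a near-identical pseudogene. Whether reads of CYP21A2 and its pseudogene were mixed here was not tested. With the replicate number as a block 2 of the 8 rose, beside 12.1% of all genes, and 1 fell, beside 10.4%. STAR, the cholesterol carrier of steroid synthesis, then passed at 0.41 (edgeR adjusted p = 3.91e-06) and CYP11A1, the first enzyme of the route, at -0.24 (adjusted p = 0.00100).

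Prostaglandins are short-lived lipid messengers. Phospholipase A2 frees arachidonic acid from membranes, a cyclooxygenase converts it to the unstable prostaglandin H2, and a terminal synthase turns that into prostaglandin E2 or another product. Prostaglandin E2 leaves the cell and acts through the receptors EP1 to EP4, encoded by PTGER1 to PTGER4, of which EP2 and EP4 raise cyclic AMP through Gs, EP3 mainly lowers it through Gi, and EP1 raises calcium. In the adrenal cortex cyclic AMP is the messenger of ACTH, and prostaglandin E2 is known to act on steroid secretion.

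PTGER3, whose difference chose the family, had 13.8 times the level in the libraries labelled PTC by summed counts. Of the 6 other members with enough counts, 1 passed the test and had groups that did not overlap, beside 3.73% and 23.5% of all genes tested. It was PTGS1, with 1.80 times the level by mean CPM. PTGER2, PTGER4, PTGES, PTGES2 and PTGES3 were measured in every library and did not pass the test. PTGER1, PTGFR and PTGS2 had at most 4 counts in any library and could not be tested.

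**Figure D1:**
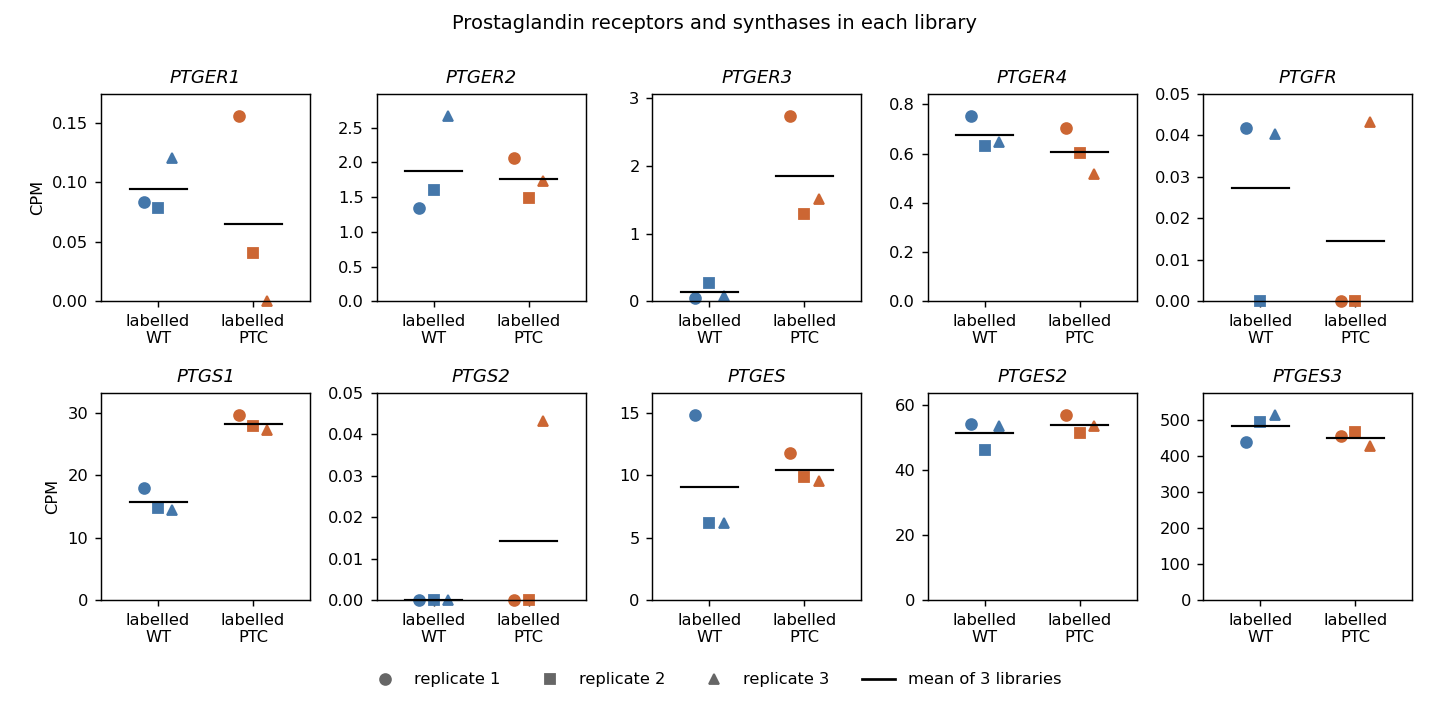
CPM of the 10 genes (vertical axes, linear and starting at 0, each gene on its own scale) in the 3 libraries labelled WT and the 3 labelled PTC. Symbols mark the replicate number and the line the mean of 3 libraries. The groups stand apart in PTGER3 and PTGS1, and in PTGES replicate 1 labelled WT lies far above the other replicates of its group.

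PTGER3, on the reverse strand of chromosome 1 from 70852353 to 71047808 (hg38), encodes EP3, a receptor with many splice forms that differ in the tail inside the cell. The table counts them together over 13 exon parts and 9653 bases. The libraries labelled WT held 1, 7 and 2 counts of PTGER3 and those labelled PTC held 70, 32 and 35, in the order of the replicate numbers. Every library labelled PTC lay above every library labelled WT. In CPM these were 0.0418, 0.275 and 0.0808 against 2.74, 1.29 and 1.51, or 0.133 ± 0.125 and 1.84 ± 0.780 (SD, n = 3 each). The fitted log2 fold change was 3.73 (standard error 0.536).

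Summed over libraries and scaled by library size, 137 counts against 10 give a ratio of 13.8. The size of the ratio rests on the 7 counts in replicate 2 labelled WT: without that library the log2 fold change was 4.80. Even in the libraries labelled PTC PTGER3 remained a gene of low abundance, and replicate 1 held about as many counts as the other replicates together. In bulk RNA, more cells with PTGER3 and more PTGER3 RNA per cell cannot be told apart.

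Markers of other cell types were checked beside this difference. PTPRC and CD68 of leukocytes and TPSAB1 of mast cells had 0 counts in all 6 libraries. The summed level of 3 mast cell markers was 0.202 to 0.293 CPM in the libraries labelled WT and 0.734 to 1.08 CPM in those labelled PTC. Of these, KIT had 4, 4 and 1 counts against 10, 17 and 11 (log2 fold change 2.04, edgeR adjusted p = 0.0552, or 0.00637 with the replicate block) and CPA3 had 3, 2 and 4 against 10, 10 and 6. KIT passed the filter on low counts only through the libraries labelled PTC, which favours a difference. With the block 22.5% of all genes passed. The summed level of 6 leukocyte markers was 0.849 to 1.42 against 1.73 to 2.03 CPM, and that of 4 chromaffin markers was 0.787 to 0.808 against 1.04 to 1.52 CPM. CD14 held the most counts of the leukocyte markers, 20, 29 and 15 against 26, 32 and 25. Its groups overlapped, so that CD14 alone does not set the leukocyte sums apart. The 4 endothelial markers had 0.0393 to 0.251 against 0.121 to 0.274 CPM and the 5 fibroblast markers 8.06 to 9.36 against 9.14 to 11 CPM, so that the groups overlapped in both. Whether any such cells were present in this cell line, or had a part in the difference of PTGER3, was not tested.

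Neither Gs-coupled receptor of prostaglandin E2 passed the test. PTGER2, which encodes EP2 and lies on chromosome 14 from 52314305 to 52328606, had 32, 41 and 66 counts in the libraries labelled WT and 53, 37 and 40 in those labelled PTC. The groups overlapped, since the highest and the lowest library both carried the label WT. Its log2 fold change was -0.09 (95% interval -0.71 to 0.54, edgeR adjusted p = 0.920), and it was 0.24 without replicate 3 labelled WT.

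PTGER4, which encodes EP4 and lies on chromosome 5 from 40679498 to 40693735, had 18, 16 and 16 counts against 18, 15 and 12. The libraries of both groups lay close together, at 0.676 ± 0.0667 and 0.608 ± 0.0929 CPM (SD, n = 3 each). The log2 fold change was -0.15 (95% interval -0.73 to 0.44, edgeR adjusted p = 0.866). These intervals reach past a log2 fold change of 0.4 in either direction, so that these libraries cannot tell a moderate difference in EP2 or EP4 RNA from none.

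PTGER1, which encodes EP1 and lies on chromosome 19 from 14472466 to 14475362, had 2, 2 and 3 counts in the libraries labelled WT and 4, 1 and 0 in those labelled PTC. PTGFR, the receptor of prostaglandin F2 alpha on chromosome 1 from 78303884 to 78539749, had 1, 0 and 1 against 0, 0 and 1. For both genes the counts lie near the limit that a count of 0 allows, 3 counts or 0.117 to 0.129 CPM in a library, and no fold change is given.

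Among the receptors the mix differed between the libraries. Per length, in CPM per kilobase, PTGER3 made up 0.539%, 3.19% and 0.623% of the summed level of the 5 receptors in the libraries labelled WT and 20.1%, 14.6% and 15.7% in those labelled PTC. PTGER2 stayed the leading receptor in all 6 libraries, with 67.4%, 72.9% and 80.2% against 59.5%, 65.7% and 70.2%. The shares of PTGER2 overlapped between the groups, and those of PTGER3 did not, as their choice fixes.

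PTGS1 encodes cyclooxygenase-1, the form that most tissues make constitutively, and lies on the forward strand of chromosome 9 from 122370530 to 122395703. It had 427, 376 and 358 counts in the libraries labelled WT and 758, 692 and 633 in those labelled PTC. All libraries labelled PTC lay above all labelled WT, at 29.6, 27.8 and 27.3 against 17.9, 14.8 and 14.5 CPM. The means were 15.7 ± 1.87 and 28.2 ± 1.21 CPM (SD, n = 3 each). The fitted log2 fold change was 0.85 (standard error 0.101, 95% interval 0.62 to 1.08, edgeR adjusted p = 0.00250).

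PTGS1 was the only one of the 9 members other than PTGER3 that passed an adjusted p of 0.05, out of 6 with enough counts to be tested. Over all 16710 genes tested 3.73% passed, 2.42% higher and 1.32% lower in the libraries labelled PTC. PTGS1 was also the only one of these 6 whose groups did not overlap, which was the case for 23.5% of all genes tested. DESeq2 and limma-voom, which called 5.45% and 3.64% of all genes, likewise gave 1 of the 6, as did the fit with the replicate number as a block, which called 22.5% of all genes. When single libraries were left out, the log2 fold change of PTGS1 lay between 0.78 and 0.95 and its adjusted p between 4.65e-04 and 0.0210. PTGS1 was higher in the library labelled PTC in all 3 pairs of same-numbered replicates.

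PTGS2, which encodes the inducible cyclooxygenase-2 and lies on the reverse strand of chromosome 1 from 186671791 to 186680427, was hardly detected. It had 0 counts in 5 libraries and 1 count in replicate 3 labelled PTC, where PTGS1 had 633. The limit that a count of 0 allows, 3 counts, corresponds per length to 0.435% to 0.921% of the PTGS1 level of the same library. The cyclooxygenase RNA of both groups was thus almost wholly that of PTGS1.

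The 250 bases before the start of these genes are printed because one is expressed in all 6 libraries and the other is not detected in 5 of them. They come from RefSeq on GRCh38.p14 and run 5′ to 3′ on the strand of the gene. Capitals mark matches, on either strand, to a TATA box (TATAAA), a GC box (GGGCGG), a cyclic AMP response element (TGACGTCA) or a nuclear receptor half-site (AGGTCA). PTGS1 has 2 windows in the table, and the one at the start of the counted gene is printed. It is chr9:122370283-122370532 on the forward strand, and the PTGS2 window is chr1:186680424-186680673 on the reverse strand.
PTGS1: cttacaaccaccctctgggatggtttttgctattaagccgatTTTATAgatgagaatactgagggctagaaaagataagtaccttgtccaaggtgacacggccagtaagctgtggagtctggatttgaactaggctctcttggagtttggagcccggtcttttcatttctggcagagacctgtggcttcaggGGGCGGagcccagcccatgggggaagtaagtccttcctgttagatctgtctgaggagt
PTGS2: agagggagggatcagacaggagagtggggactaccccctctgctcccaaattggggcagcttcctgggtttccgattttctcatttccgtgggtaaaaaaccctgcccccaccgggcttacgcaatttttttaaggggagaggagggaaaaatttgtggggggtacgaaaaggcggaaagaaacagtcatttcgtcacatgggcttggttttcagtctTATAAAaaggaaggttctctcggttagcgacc

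PTGS2 holds a TATA box on its own strand that begins 32 bases before the start, where such boxes usually lie. PTGS1 has no TATA box at that place and holds a GC box beginning 58 bases before the start. Its TATAAA match lies 208 bases before the start and on the opposite strand. Of 35116 promoter windows of this length in the table, 10.7% hold the TATA letters and 42.6% the GC box. The table holds 12 windows for 9 of the members, with PTGER3 not among them. Neither the cyclic AMP response element nor the half-site, found in 1.65% and 12.1% of all windows, has an exact match in these 12. None of the 4 motifs overlapped another one in the printed sequences.

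The terminal synthases gave no difference that passed the test. PTGES encodes microsomal prostaglandin E synthase-1, an inducible enzyme, and lies on chromosome 9 from 129738331 to 129753047. It had 354, 157 and 152 counts in the libraries labelled WT and 303, 246 and 221 in those labelled PTC, or 14.8, 6.17 and 6.14 against 11.8, 9.88 and 9.54 CPM. Replicate 1 labelled WT had the highest value of all 6, while the other replicates labelled WT had the lowest. The log2 fold change was 0.21 (standard error 0.312, 95% interval -0.50 to 0.92, edgeR adjusted p = 0.805).

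A single library decided the call for PTGES. Without replicate 1 labelled WT the log2 fold change was 0.76 and the edgeR adjusted p 0.0136. Without replicate 2 or replicate 3 labelled WT it was -0.0040 and -0.017, with adjusted p of 0.997 and 0.988. Within the pairs of same-numbered replicates the log2 ratio was -0.32 in pair 1, 0.67 in pair 2 and 0.63 in pair 3, and with these pairs as a block the edgeR adjusted p was 0.241. Replicate 1 was the highest of its group for PTGES and for PTGS1 under both labels.

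PTGES2 encodes microsomal prostaglandin E synthase-2 and lies on chromosome 9 from 128120693 to 128128462. Its counts were 1293, 1171 and 1329 against 1456, 1277 and 1244, with the groups overlapping. The log2 fold change was 0.07 (95% interval -0.12 to 0.27, edgeR adjusted p = 0.747), an interval that leaves out the change seen for PTGS1.

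PTGES3 encodes p23, a cochaperone of HSP90 that is also described as the cytosolic prostaglandin E synthase, and lies on chromosome 12 from 56663341 to 56688408. It had 10511, 12602 and 12718 counts in the libraries labelled WT and 11663, 11593 and 9942 in those labelled PTC. The log2 fold change was -0.10 (95% interval -0.29 to 0.09, edgeR adjusted p = 0.619). Since reads that map to several places were counted at their primary position, part of its reads can fall on processed pseudogenes. Of 5 pseudogene rows, PTGES3P1 held up to 154 counts in a library, PTGES3P3 up to 37 and the other rows at most 3, and adding all of them to PTGES3 left the log2 fold change at -0.10. The test therefore gave the same call with and without these rows.

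**Figure D2:**
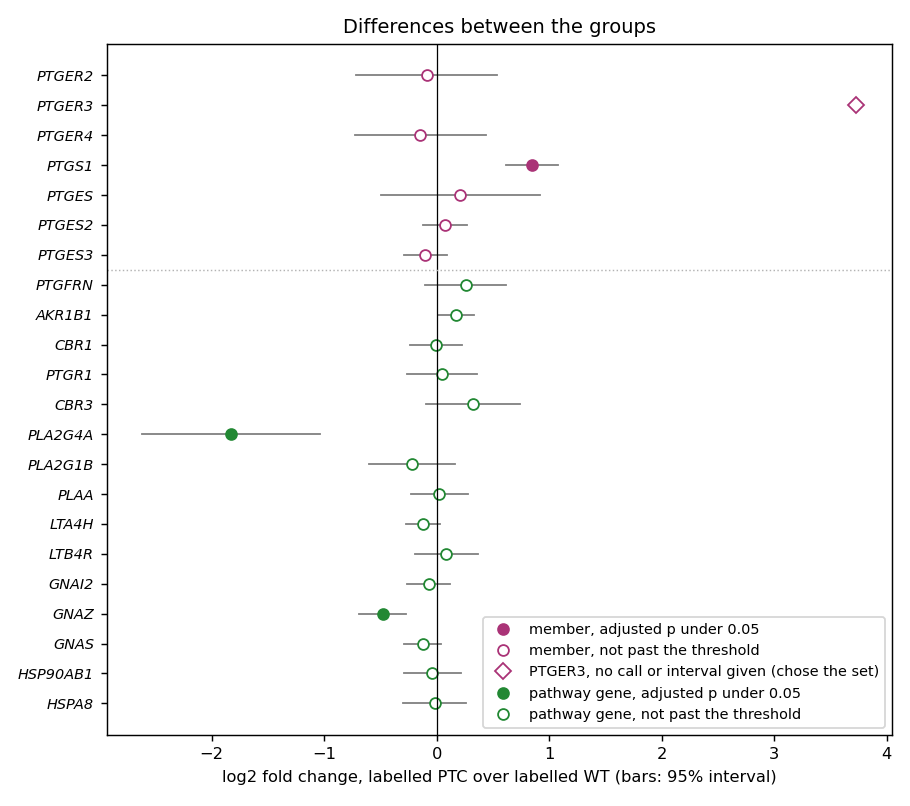
Log2 fold changes of the libraries labelled PTC over those labelled WT (horizontal axis) with 95% intervals except for PTGER3, for the 7 members with enough counts (above the dotted line) and for named genes of the pathway lists. Filled symbols passed an adjusted p of 0.05: PTGS1 at 0.85, PLA2G4A at -1.83 and GNAZ at -0.48. PLA2G4A passed the filter on low counts only through the libraries labelled WT. PTGER3, at 3.73, is shown without a call because its difference chose the set.

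The levels of the genes differed far more between members than between groups. In CPM per kilobase, the mean in the libraries labelled WT was 142 for PTGES3, 16.9 for PTGES2, 4.77 for PTGES, 2.71 for PTGS1, 0.757 for PTGER2 and 0.171 for PTGER4. Neighbours in this order did not overlap between libraries. PTGER1, PTGER3, PTGFR and PTGS2 followed at 0.0665 and below, on counts too few to order them.

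In the libraries labelled PTC the first 5 places were the same, with 132 for PTGES3, 17.8 for PTGES2, 5.50 for PTGES, 4.88 for PTGS1 and 0.712 for PTGER2. PTGER3 stood next at 0.191 and overlapped with PTGER4 at 0.153. PTGES and PTGS1 also overlapped there, at 5.03 to 6.24 and 4.72 to 5.12, while under the label WT their ranges did not overlap. Within each of the 6 libraries PTGES lay above PTGS1. The ratio of PTGES to PTGS1 per length was 2.53, 1.28 and 1.30 in the libraries labelled WT and 1.22, 1.09 and 1.07 in those labelled PTC. That of PTGES2 to PTGS1 was 5.77, 5.93 and 7.07 against 3.66, 3.52 and 3.74. Both ratios were lower in every library labelled PTC than in every library labelled WT. Both have PTGS1 as denominator, whose own groups did not overlap, as for 23.5% of all genes tested. The ratios are therefore no separate result for the synthases, neither of which passed the test.

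**Figure D3:**
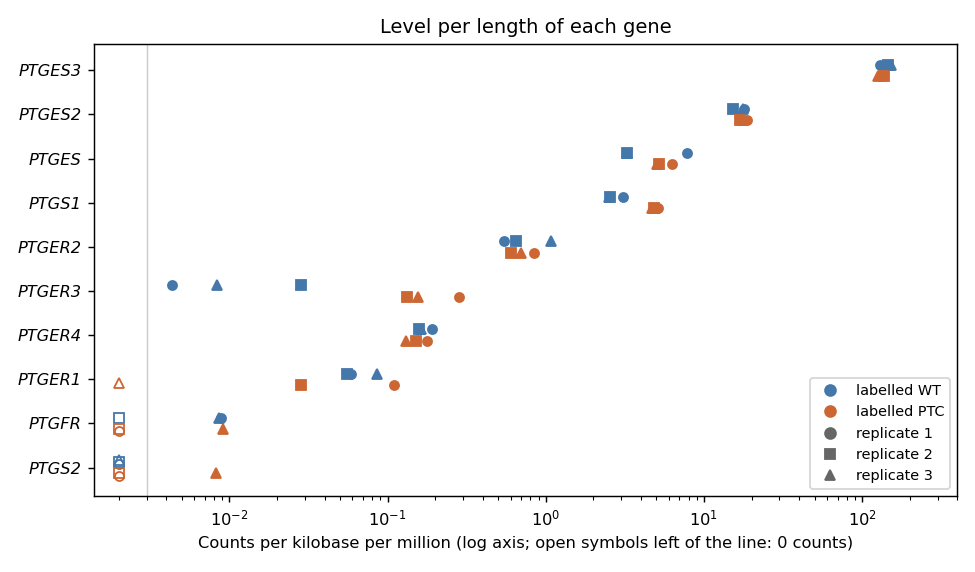
Level per length of each gene (horizontal axis, CPM per kilobase on a log scale) in the 6 libraries, ordered by the mean of the libraries labelled PTC. Colors mark the label, symbols the replicate, and open symbols left of the line libraries with 0 counts. PTGES3 leads under both labels and PTGER3 moves from the low genes to the level of PTGER4.

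The genes that lie beside PTGER3 and PTGS1 were read for their own differences. That PTGER3 differs more than its neighbours follows from its choice and is no finding. Around PTGER3, the 10 nearest tested genes on each side, between 68045962 and 76700538 on chromosome 1, had a median log2 fold change of -0.017, from -0.45 to 0.81. Of these 20 genes 9 were higher in the libraries labelled PTC and 0 passed an edgeR adjusted p of 0.05. With the replicate block 3 of the 20 passed, WLS, SLC44A5 and ACADM, beside 22.5% of all genes. The nearest were CTH, a cysteine-forming enzyme, at -0.04 (adjusted p = 0.954) and ZRANB2, a splicing factor, at -0.08 (adjusted p = 0.751).

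Around PTGS1, the 20 nearest tested genes between 121338988 and 123380324 on chromosome 9 had a median log2 fold change of -0.12, from -0.775 to 0.262. Of these, 3 were higher in the libraries labelled PTC, and 1 passed the test, ZBTB26, which was lower (log2 fold change -0.34, edgeR adjusted p = 0.0335). Over all genes 1.32% were lower by this test. With the replicate block 7 of the 20 passed, all of them lower, beside 10.4% lower over all genes. PTGS1 lay 0.97 above the median of its neighbours on the log2 scale. The nearest tested rows beside PTGS1 were a transcript known by a clone name at 0.26 (adjusted p = 0.727) and the pseudogene SKA2P1 at -0.08 (adjusted p = 0.915). PTGES and PTGES2 lie farther along the same chromosome.

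**Figure D4:**
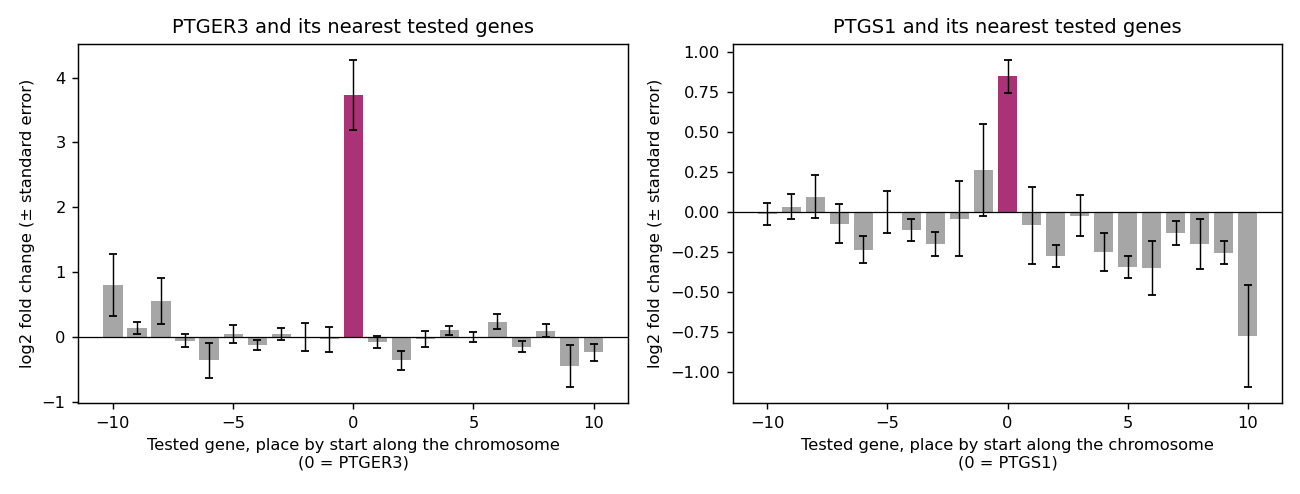
Log2 fold change with its standard error (vertical axes) of PTGER3, PTGS1 and the 10 nearest tested genes on each side, in the order of their starts (horizontal axes, place relative to the gene). The neighbours of PTGER3 lie between -0.45 and 0.81 and those of PTGS1 between -0.775 and 0.262, with PTGS1 itself at 0.85 and PTGER3, chosen for its difference, at 3.73.

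The rest of the prostaglandin pathway was read from 7 lists of 62 genes, of which 39 had enough counts to be tested. Of these 39, 2 were lower in the libraries labelled PTC at an edgeR adjusted p under 0.05 and 0 higher, beside 1.32% lower and 2.42% higher over all genes. Among them PLA2G4A passed the filter on low counts only through the libraries labelled WT, where it was high. The median log2 fold change of the 39 was -0.027, against 0.00094 over all genes tested. With the replicate number as a block 9 of the 39 passed, beside 22.5% of all genes.

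Of the genes that passed, PLA2G4A fell more than the other. It encodes the cytosolic phospholipase A2 that supplies arachidonic acid to cyclooxygenases. It had 13, 21 and 17 counts in the libraries labelled WT and 4, 6 and 4 in those labelled PTC, so that the groups did not overlap. The log2 fold change was -1.83 (standard error 0.348, 95% interval -2.62 to -1.04, edgeR adjusted p = 0.0249). The counts labelled PTC were too low for the filter, so PLA2G4A was tested only through the libraries labelled WT. Such an entry favours a difference, and the call is given as a description. The counts are few, and the adjusted p rose to 0.100 without replicate 2 labelled WT, 0.0921 without replicate 3 labelled WT, and 0.0810, 0.0719 and 0.111 without replicates 1, 2 and 3 labelled PTC. PLA2G4A was the only one of the 6 tested genes of arachidonate release that passed. Those with the highest level per length in that list, PLAA, an activator of phospholipase A2, and PLA2G1B, a secreted phospholipase A2, had log2 fold changes of 0.03 (adjusted p = 0.943) and -0.22 (adjusted p = 0.583).

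Of the 10 G protein alpha subunits, which carry the signal of the receptors, GNAZ fell. GNAZ encodes a member of the Gi family and had 4283, 3940 and 4355 counts in the libraries labelled WT and 2970, 2897 and 3082 in those labelled PTC, with no overlap. Its log2 fold change was -0.48 (standard error 0.0905, 95% interval -0.69 to -0.28, edgeR adjusted p = 0.0235). The adjusted p was 0.105 without replicate 3 labelled WT, 0.0595 without replicate 1 labelled PTC and 0.117 without replicate 2 labelled PTC. GNAI2, the Gi subunit of highest level per length, stood at -0.07 (95% interval -0.26 to 0.12, adjusted p = 0.744). GNAS, which encodes the Gs subunit through which EP2 and EP4 act, stood at -0.12 (adjusted p = 0.442) and passed with the replicate block (0.0485). GNAQ and GNA11, subunits of the Gq family, also passed with the block, GNAQ at -0.37 (0.258, or 2.22e-05 with the block) and GNA11 in the other direction at 0.14 (0.481, or 0.0273 with the block).

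In the other 5 lists none of the 23 tested genes passed by edgeR, DESeq2 or limma-voom, and 3 had an unadjusted p under 0.05 by edgeR, beside 17.3% of all genes. Without the filter on low counts, when 3.59% of all genes passed, 1 of them passed by edgeR, ABCC4, an exporter of prostaglandins (log2 fold change -0.56, adjusted p = 0.0489). With the replicate block 4 of them passed, beside 22.5% of all genes. Of the other prostanoid receptors PTGIR had 0 counts in all 6 libraries and PTGDR between 4 and 12. PTGFRN, a protein that inhibits ligand binding to the prostaglandin F2 alpha receptor, had a log2 fold change of 0.26 (edgeR adjusted p = 0.462), or 5.05e-04 with the block.

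Of the other prostanoid synthases, CBR1 and AKR1B1, carbonyl-reducing enzymes that can make prostaglandin F2 alpha, had log2 fold changes of -0.0061 (edgeR adjusted p = 0.987) and 0.17 (0.265, or 0.0183 with the block). HPGDS, which makes prostaglandin D2 in blood cells, had 0 counts in all 6 libraries. Of the transport and breakdown genes, ABCC4 stood at -0.56 (0.264, or 5.15e-04 with the block). PTGR1, a prostaglandin reductase, and CBR3, another carbonyl reductase, stood at 0.05 (0.918) and 0.32 (0.430).

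The lipoxygenase route was read from 12 genes, of which 3 were tested. LTA4H, which makes leukotriene B4, had a log2 fold change of -0.12 (edgeR adjusted p = 0.411) and its receptor LTB4R one of 0.085 (95% interval -0.20 to 0.37), which did not pass. The chaperone partners of p23 gave no call for HSP90AB1 at -0.04 (adjusted p = 0.914) or HSPA8 at -0.02 (adjusted p = 0.968), and of their 9 genes FKBP4, an HSP90 cochaperone, passed with the block (-0.16, adjusted p = 0.0107).

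The genes whose values most resembled those of PTGER3 over the 6 libraries, among 14553 genes with a mean of at least 1 CPM, were RPS6KC1, C6orf106, TPD52L1, SFRP4 and LAMB3. Pearson's r of the log2 CPM was 0.992, 0.991, 0.991, 0.989 and 0.989. SFRP4, a secreted inhibitor of Wnt signalling, had a mean of 2.67 CPM in the libraries labelled WT and 9.91 CPM in those labelled PTC. TPD52L1, a protein of vesicle traffic, had 172 and 237 CPM.

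For PTGS1 the closest were HDAC9, CTSZ, UBE2H, MLEC and HEY2, at 0.998, 0.998, 0.998, 0.997 and 0.996. HDAC9, a histone deacetylase, had 20.9 and 44.3 CPM and CTSZ, a lysosomal protease, 9.78 and 43.9 CPM. These correlations are descriptions over 6 libraries that fall into 2 groups, so that genes which differ between the labels resemble each other through the label. By rank, 36 genes had a correlation of 1 with PTGER3 and 73 with PTGS1.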

How the data were processed

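RNA from 3 replicates of parental H295R cells and 3 replicates of the Ptch1 positive subpopulation was sequenced as paired reads. The authors used STAR 2.4.0a to map reads to hg38. With featureCounts they summed fragments over the exons of an Ensembl release, and a read with several mappings was counted at its primary one. The strand setting printed in the methods is the opposite of the one usual for such a stranded kit, and no source used here settles which was run. The values deposited are these raw counts per gene, with no normalization. A row without a gene name, holding spike-in sequences, had 0 counts.

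The main test was the two-sided quasi-likelihood F-test of edgeR 4.0.16 (R 4.3.3) after filterByExpr and TMM scaling, with the label as single factor, and p-values of the 16710 genes tested were adjusted by Benjamini-Hochberg. Levels are CPM on TMM-scaled library sizes, and levels per length use the gene length of the table. Correlations used log2 CPM with a prior count of 2. Alternatives were DESeq2 1.42.0, limma-voom (limma 3.58.1), relative log expression factors, no filter, at least 10 counts in every library, a replicate block and leaving out each library. Same-numbered replicates carry the same code and deviated together from their group means (correlations 0.497, 0.308 and 0.226 across genes, all others at most 0.150). The study states no pairing, so the block was left out of the model.

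The members, lists and motifs were chosen with earlier results of these data known. Text names all 10 members, list genes past the threshold, the 2 of highest level per length in each list, the 5 genes most like PTGER3 and PTGS1, and their nearest tested genes. Further genes (PTGDR, PTGIR, HPGDS, ABCC4, GNAQ, GNA11, FKBP4, ZBTB26, WLS, SLC44A5, ACADM and markers) were named after their values were seen. The result of 1 marker gene is not reported here.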

Additional observations from a re-analysis of the deposited data

How the results depend on the processing

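Of the tested members, PTGS1, PTGER4, PTGES2 and PTGES3 kept direction and call under all alternatives run. When single libraries were left out, the log2 fold change lay between 0.78 and 0.95 for PTGS1, -0.27 and -0.056 for PTGER4, 0.0016 and 0.11 for PTGES2, -0.17 and -0.066 for PTGES3, -0.28 and 0.24 for PTGER2, -0.017 and 0.76 for PTGES, and 3.32 and 4.80 for PTGER3. PTGER2 turned positive without replicate 3 labelled WT (0.24) and without replicate 2 labelled PTC (0.021). PTGES turned negative without replicate 2 or 3 labelled WT (-0.0040 and -0.017) and passed without replicate 1 labelled WT, which made the called members other than PTGER3 range from 1 to 2. At least 10 counts in every library removed PTGER3 and PLA2G4A, left 1 called pathway gene in place of 2, and 479 called genes in all. The replicate block gave 9 called pathway genes and 3758 genes in all against 624, no filter gave 3 and 1111, and DESeq2 gave 911 genes in all. The block changed no call of a member. Leaving out single libraries gave 0 to 3 called pathway genes and 219 to 810 genes in all (219 without replicate 3 labelled WT). With 5 neighbours on each side PTGER3 stayed 3.75 and PTGS1 0.95 above their median. PTGER1, PTGFR and PTGS2 are limited by depth.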
